A study of Mus musculus with 12 samples.

Results

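The gasdermin genes of mouse periocular skin were followed in 8 libraries, 4 of them labelled ft/ft and the other 4 ft/ftMyD88-/-. The members were the rows of the count table whose gene symbol was *Gsdma*, *Gsdma2*, *Gsdma3*, *Gsdmc*, *Gsdmc2*, *Gsdmc3*, *Gsdmc4* or *Gsdmd*. Of these 8 genes 7 had a row among the 21247 genes of the table, and *Gsdmc3* was not analysed here. All mice were on the BALB/c background, 6 weeks old and given as female. ft/ft mice are homozygous for a point mutation that arose spontaneously and leaves them without functional filaggrin, a protein of the cornified epidermis, and in this line the flaky tail mutation is kept without the matted (ma) mutation of *Tmem79*. ft/ftMyD88-/- mice carry the same filaggrin alleles and also lack MyD88, through which toll-like receptors and receptors of the IL-1 family signal. The labels name no cell type to which that loss is limited. The filaggrin mutation is thus shared by both groups, and the 4 WT samples of the study were not analysed here. RNA came from whole skin around the eye, so a difference in a transcript can be a difference in the number of cells that hold it or in the RNA per cell, and these cannot be told apart.

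Gasdermins are pore-forming proteins. In most of them an amino-terminal part that can insert into membranes is held silent by a carboxy-terminal part, until a protease cuts the linker between them. The freed parts assemble into pores, through which cytokines of the IL-1 family leave the cell and which can end in a lytic death called pyroptosis. GSDMD is cut by the inflammatory caspases downstream of inflammasomes. The GSDMA proteins are made by the epithelium of skin and upper gut, where streptococcal protease can cut the human protein, and mutations of mouse *Gsdma3* are known for hair loss and abnormal sebaceous glands. The mouse *Gsdmc* genes are known from gut epithelium, where type 2 cytokines raise them, and human GSDMC can be cut by caspase-8.

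The mouse *Gsdma* genes lie side by side on chromosome 11 and the *Gsdmc* genes on chromosome 15, each as a row of copies in the same orientation. In the RefSeq annotation of GRCm38.p6, *Gsdma3* spans chr11:98626349-98638801, *Gsdma2* chr11:98646743-98657964 and *Gsdma* chr11:98664337-98677708, all on the plus strand. *Gsdmc* spans chr15:63775971-63808739, *Gsdmc2* chr15:63824328-63845193, *Gsdmc3* chr15:63857605-63878579 and *Gsdmc4* chr15:63891140-63912319, all on the minus strand. *Gsdmd* lies apart from them on the plus strand at chr15:75862144-75867408. Reads are described as 50 bases long, so the start of each coding sequence is shown at that length, because it shows how much of a read 2 copies can share. The sequences are exonic, were taken from the GENCODE M21 transcripts of GRCm38 and run 5′ to 3′. Capitals mark bases that differ from *Gsdma* in the first set, which covers chr11:98666061-98666110 in *Gsdma*, chr11:98649054-98649103 in *Gsdma2* and chr11:98629352-98629401 in *Gsdma3*.
Gsdma: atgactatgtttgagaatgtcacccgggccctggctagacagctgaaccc
Gsdma2: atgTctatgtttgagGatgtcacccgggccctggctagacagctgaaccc
Gsdma3: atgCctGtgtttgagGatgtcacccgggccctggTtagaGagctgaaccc

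The same stretch of the *Gsdmc* genes follows, with capitals for bases that differ from *Gsdmc*. It covers chr15:63804543-63804592 in *Gsdmc*, chr15:63835894-63835943 in *Gsdmc2*, chr15:63869248-63869297 in *Gsdmc3* and chr15:63902881-63902930 in *Gsdmc4*.
Gsdmc: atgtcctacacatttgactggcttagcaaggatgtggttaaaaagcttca
Gsdmc2: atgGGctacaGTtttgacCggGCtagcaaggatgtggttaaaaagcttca
Gsdmc3: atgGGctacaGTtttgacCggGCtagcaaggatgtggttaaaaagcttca
Gsdmc4: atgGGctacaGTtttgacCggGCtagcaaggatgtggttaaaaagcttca

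*Gsdma2* differed from *Gsdma* at 2 of these 50 bases and *Gsdma3* at 5. *Gsdmc2*, *Gsdmc3* and *Gsdmc4* each differed from *Gsdmc* at 7 bases and were identical to each other over the whole stretch, so a read from it names none of them. Where *Gsdmc2* and *Gsdmc3* differed most within an exon, at coding bases 815 to 864, a read could be assigned, and there they differed at 10 bases. That stretch is shown with capitals where *Gsdmc3* differs from *Gsdmc2*, at chr15:63826882-63826931 in *Gsdmc2* and chr15:63860312-63860361 in *Gsdmc3*, both on the minus strand.
Gsdmc2: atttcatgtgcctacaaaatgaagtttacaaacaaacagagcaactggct
Gsdmc3: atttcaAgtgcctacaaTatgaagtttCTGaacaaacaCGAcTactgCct

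Over whole coding sequences, *Gsdmc2* and *Gsdmc3* were 97.1% identical, and *Gsdmc4* was 93.8% identical to each of them. *Gsdmc* stood further off, at 87.0% to *Gsdmc2*, 87.2% to *Gsdmc3* and 88.1% to *Gsdmc4*. Within the other cluster, *Gsdma* was 91.5% identical to *Gsdma2* and 89.8% to *Gsdma3*. Of all 50-base windows of the transcript, 48.5% in *Gsdmc2* and 39.0% in *Gsdmc4* also occurred in a transcript of another gene, against 16.4% in *Gsdmc*, 10.1% in *Gsdma2*, 8.26% in *Gsdma*, 5.25% in *Gsdma3* and 0 in *Gsdmd*. HTSeq at default settings, the counting the study describes, leaves out a read that the aligner marks as matching several places, and the counts of *Gsdmc2* and *Gsdmc4* are uncertain as levels. The sample labels name another protocol, for fixed tissue, for which windows of read length would not describe the counting. Which of them made these counts, and how reads of shared windows were placed, was not tested.

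**Figure D1:**
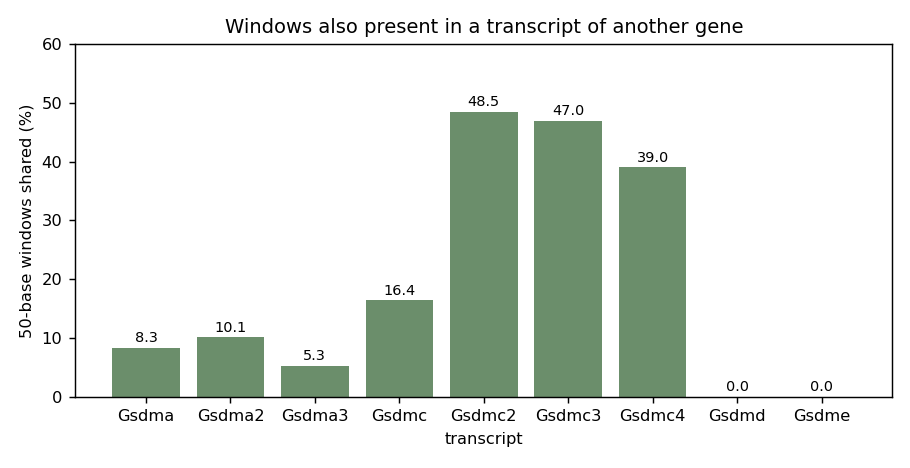
Share of all 50-base windows (%, y axis) of each gasdermin transcript (x axis) that also occur in a transcript of another gene, 1 bar per transcript in the GENCODE M21 annotation of GRCm38. *Gsdmc2*, *Gsdmc3* and *Gsdmc4* share between 39.0% and 48.5% of their windows, whereas *Gsdmd* shares none.

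Between 18941705 and 29255129 reads were counted per library labelled ft/ft, and between 15802957 and 27037997 per library labelled ft/ftMyD88-/-. Levels are given as CPM, counts scaled to a common library size with edgeR's TMM factors, in which 3 counts correspond to 0.102 to 0.183 CPM. *Myd88* itself stood at 41.2 ± 7.29 CPM with the label ft/ftMyD88-/- and at 30.7 ± 4.74 with the label ft/ft (SD, n = 4 each). It was thus not lower in the libraries labelled as the knockout but called higher (log2 fold change 0.42, edgeR adjusted p = 0.0484). That call was kept under 8 of 15 alternatives. A gene-level count cannot tell whether an exon is missing, and every direction below rests on the labels. *Flg*, the filaggrin gene, was at 103 ± 69.8 CPM in ft/ft against 242 ± 39.5 in ft/ftMyD88-/- (SD, n = 4 each). The groups overlapped, and edgeR did not call it (adjusted p = 0.120), though DESeq2 (0.0450) and limma voom (0.0199) did. *Xist*, the transcript of the inactive X chromosome, was at 34.6 to 66.8 CPM in the 4 libraries labelled ft/ftMyD88-/- and at 1 count in all in those labelled ft/ft, and Y-linked *Ddx3y* at 54.2 to 73.2 CPM in ft/ft and at most 0.482 in the others. This goes against the sex given for the mice labelled ft/ft, so that sex and genotype cannot be told apart. *Tmem79* also separated the groups, at 59.2 ± 2.92 CPM in ft/ft against 16.4 ± 2.10 in ft/ftMyD88-/- (SD, n = 4 each). Among the libraries labelled ft/ft, replicate 2 stood apart in inflammation-associated transcripts, for example *S100a8* at 88.4 CPM against 1.53 to 8.96 in the other 3. The RNA-seq groups are given as 4 mice each, and the 4 libraries of a group were taken as separate animals.

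All 7 gasdermin genes had at least 10 counts summed over the 8 libraries and were tested, with p-values adjusted over 20454 genes by edgeR's quasi-likelihood test. *Gsdma2*, *Gsdmc*, *Gsdmc2* and *Gsdmc4* were higher in ft/ftMyD88-/- at an adjusted p under 0.05, that is 4 of 7, beside 10.9% of all genes tested (23.3% in either direction). None was lower, beside 12.3% of all genes, and none was lower at an unadjusted p under 0.05 or in DESeq2 or limma voom. In 5 of the 7, every ft/ftMyD88-/- library lay above every ft/ft library, which held for 12.5% of all genes tested (26.7% in either direction). The median log2 fold change of the 7 was 0.80, and that of all genes 0.01. *Gsdmc*, *Gsdmc2* and *Gsdmc4* are neighbouring copies with shared windows, so the 7 do not count as independent genes.

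**Figure D2:**
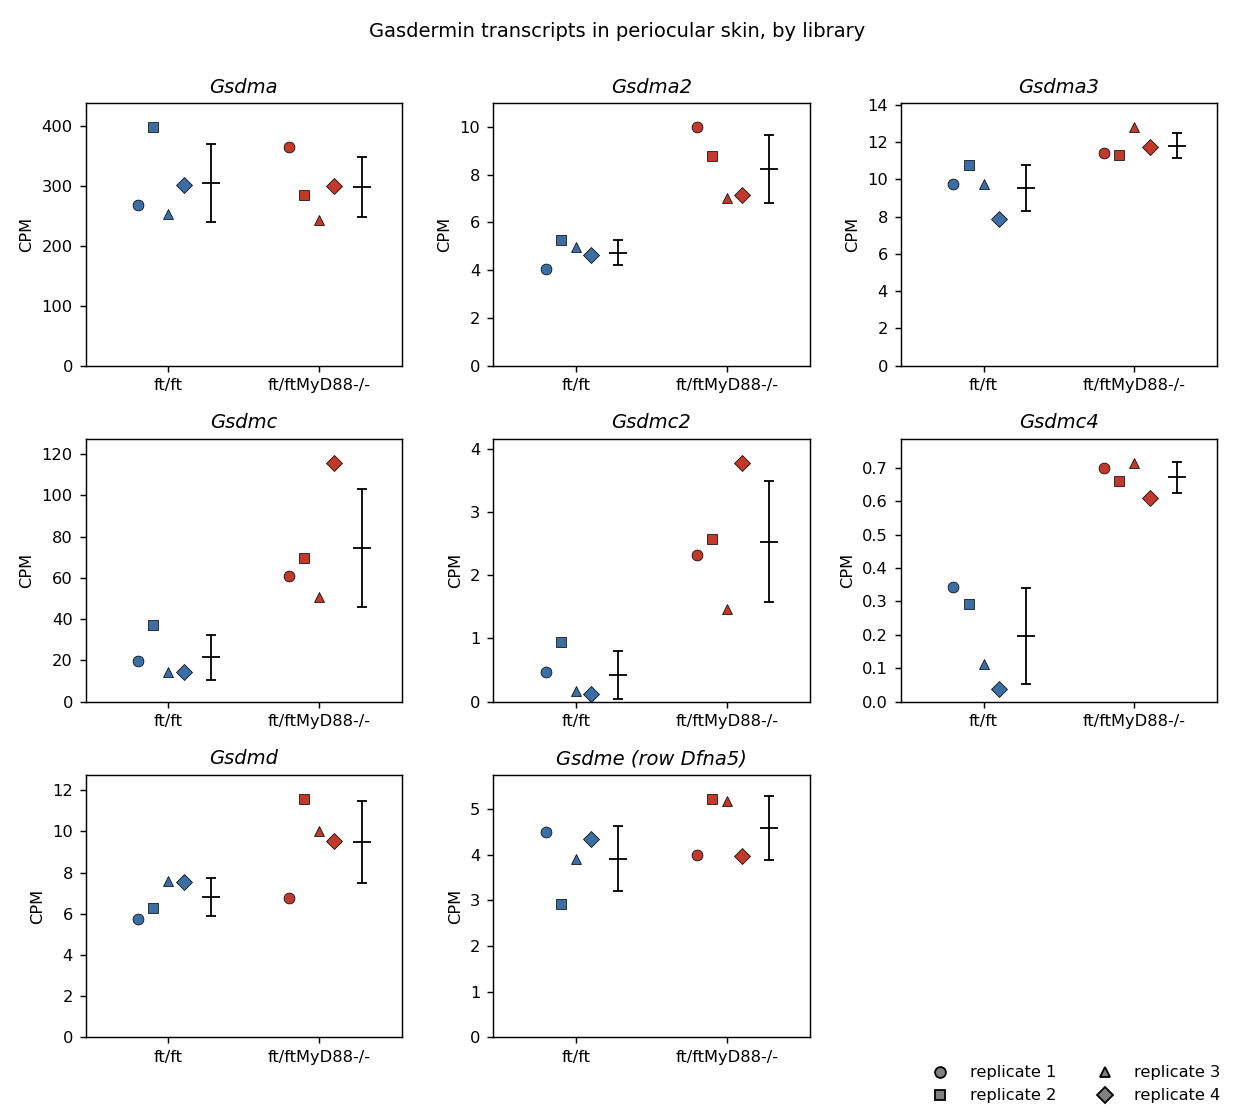
CPM (y axis) of each gasdermin gene in the 4 ft/ft and the 4 ft/ftMyD88-/- libraries (x axis), 1 point per library with its replicate number by shape, and the mean with its SD beside each group. *Gsdma* overlaps between the groups, whereas all 4 ft/ftMyD88-/- libraries lie above all 4 ft/ft libraries in *Gsdma2*, *Gsdma3*, *Gsdmc*, *Gsdmc2* and *Gsdmc4*.

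The most abundant gasdermin of both groups was *Gsdma*. Per kilobase of transcript it reached 112 ± 23.9 CPM in ft/ft against 109 ± 18.5 in ft/ftMyD88-/- (SD, n = 4 each). *Gsdmc* followed in both groups, at 8.89 ± 4.52 and 30.9 ± 11.9 CPM per kilobase, and *Gsdma3* came next, at 6.45 ± 0.821 and 7.99 ± 0.461. In ft/ft, *Gsdmc* and *Gsdma3* differed by less than the SD of *Gsdmc*. Then came *Gsdmd* at 3.79 ± 0.515 and 5.28 ± 1.11 CPM per kilobase and *Gsdma2* at 2.83 ± 0.307 and 4.92 ± 0.852, whose levels in ft/ftMyD88-/- differed by less than their SD. *Gsdme*, which is no member, followed at 1.56 ± 0.285 and 1.83 ± 0.281. *Gsdmc2* (0.197 ± 0.176 and 1.17 ± 0.443) and *Gsdmc4* (0.0940 ± 0.0693 and 0.322 ± 0.0226) were lowest, with the sharing of windows described above. The order was the same in both groups, and also per kilobase of coding sequence. Dividing by length rests on the libraries the study describes. Whether it holds for the fixed-tissue protocol that the labels name was not tested.

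The mix of gasdermin transcripts was set beside these levels as a description. Among the summed levels per kilobase of the family, *Gsdma* took 82.4% to 85.8% in ft/ft and 61.9% to 75.1% in ft/ftMyD88-/-, with no overlap. *Gsdmc* took 4.65% to 8.80% in ft/ft and 14.3% to 27.1% in ft/ftMyD88-/-, also with no overlap. In counts, *Gsdma* exceeded *Gsdmc* 13.6, 10.7, 17.8 and 20.9 times in ft/ft replicates 1 to 4 and 5.96, 4.08, 4.78 and 2.59 times in ft/ftMyD88-/- replicates 1 to 4. A ratio of counts within a library does not depend on the scaling between libraries, but it does depend on both transcripts' lengths. The shares per kilobase rest on the same division by length as the levels above.

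**Figure D3:**
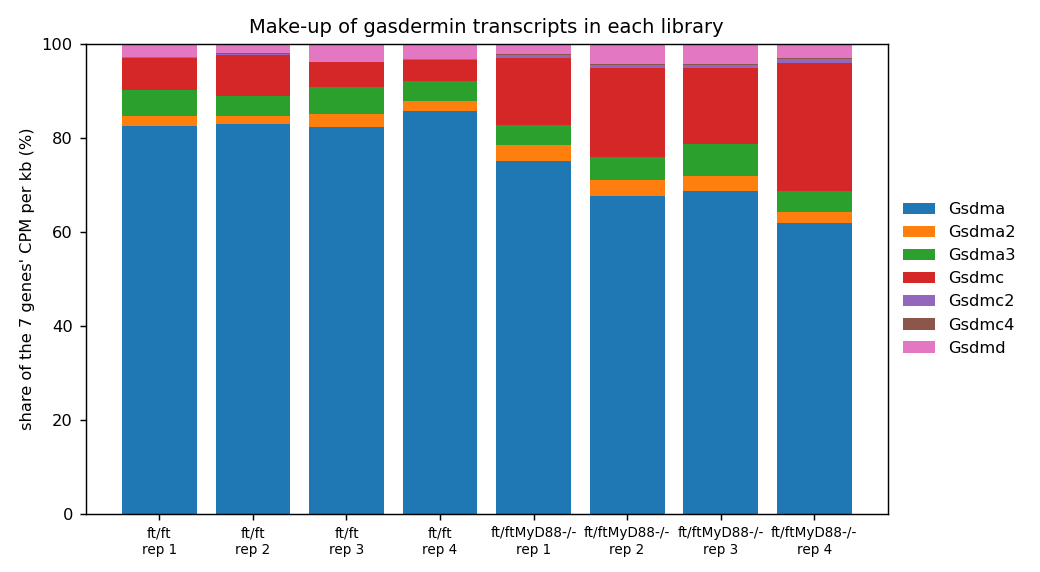
Share (%, y axis) of each gasdermin gene in the summed CPM per kilobase of the family, 1 stacked bar per library (x axis, replicates 1 to 4 of ft/ft and of ft/ftMyD88-/-). *Gsdma* takes 82.4% to 85.8% in ft/ft and 61.9% to 75.1% in ft/ftMyD88-/-, and *Gsdmc* 4.65% to 8.80% and 14.3% to 27.1%.

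In the chromosome 11 cluster, *Gsdma*, a gene of the surface epithelium, stood at 268, 398, 253 and 302 CPM in ft/ft replicates 1 to 4 and at 364, 284, 243 and 299.9 in ft/ftMyD88-/- replicates 1 to 4. The highest library was an ft/ft library, the lowest an ft/ftMyD88-/- library, and the groups overlapped. Its log2 fold change (ft/ftMyD88-/- over ft/ft) was -0.04 (SE 0.155, edgeR adjusted p = 0.894), and its sign turned with scaling by library size alone (0.14) and without ft/ft replicate 2 (0.12) or ft/ftMyD88-/- replicate 3 (0.06). At a standard error of 0.155, a difference of this size was not detectable in these 8 libraries.

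*Gsdma2*, the middle copy of the cluster, was at 4.07, 5.27, 4.96 and 4.64 CPM in ft/ft and at 9.99, 8.78, 7.01 and 7.13 in ft/ftMyD88-/-. Every ft/ftMyD88-/- library lay above every ft/ft library. The mean rose from 4.74 ± 0.513 to 8.23 ± 1.43 CPM (SD, n = 4 each), which is 1.74-fold and a log2 fold change of 0.80 (SE 0.157, edgeR adjusted p = 0.00386). The exact permutation test over libraries gave p = 0.0286, the smallest that 4 against 4 libraries allow. This value is not adjusted over genes and restates that the groups did not overlap. The call was kept under all 15 alternatives tried, with adjusted p-values from 4.55e-05 to 0.0150.

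*Gsdma3*, the copy whose mutations affect hair, was at 9.73, 10.8, 9.76 and 7.86 CPM in ft/ft and at 11.4, 11.3, 12.8 and 11.7 in ft/ftMyD88-/-. The groups did not overlap, but their nearest libraries were close. The log2 fold change of 0.31 (SE 0.123) did not pass the threshold (edgeR adjusted p = 0.0878). The exact permutation test gave p = 0.0286, which restates the lack of overlap and is not adjusted over genes. DESeq2 put its adjusted p at 0.0485. Summed over the 3 copies, the cluster held 319 ± 66.0 CPM in ft/ft against 318 ± 51.1 in ft/ftMyD88-/- (SD, n = 4 each), a sum made up mostly of *Gsdma*.

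In the chromosome 15 cluster, *Gsdmc* was at 19.7, 37.2, 14.2 and 14.4 CPM in ft/ft replicates 1 to 4 and at 61.1, 69.7, 50.8 and 115.6 in ft/ftMyD88-/- replicates 1 to 4. ft/ft replicate 2 was the highest of its group, ft/ftMyD88-/- replicate 4 the highest of all, and the groups did not overlap. The mean rose 3.45-fold, from 21.4 ± 10.9 to 74.3 ± 28.6 CPM (SD, n = 4 each). Its log2 fold change was 1.79 (SE 0.415, edgeR adjusted p = 0.0235). The exact permutation test gave p = 0.0286, which again restates the lack of overlap. The call was lost when ft/ft replicate 1, 3 or 4 was left out (edgeR adjusted p = 0.0643, 0.0565 and 0.0586), each time with ft/ft replicate 2 kept in a group of 3, and without ft/ft replicate 2 the log2 fold change was 2.20 (adjusted p = 0.00441).

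*Gsdmc2* was read 11, 26, 3 and 3 times in ft/ft and 53, 70, 43 and 62 times in ft/ftMyD88-/-. In CPM these were 0.471, 0.946, 0.167 and 0.115 against 2.32, 2.57, 1.46 and 3.78. As for *Gsdmc*, ft/ft replicate 2 was the highest of its group and ft/ftMyD88-/- replicate 4 of the other. The log2 fold change was 2.48 (SE 0.514, edgeR adjusted p = 0.00656), the largest of the 7 genes, and the call was kept under all 15 alternatives with adjusted p-values from 7.27e-06 to 0.0223. Without ft/ft replicate 2 the log2 fold change was 3.28.

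*Gsdmc4* was rarer still, with 8, 8, 2 and 1 reads counted in ft/ft against 16, 18, 21 and 10 in ft/ftMyD88-/-. In CPM, the 4 ft/ftMyD88-/- libraries lay close together, at 0.701, 0.661, 0.714 and 0.610, above all ft/ft libraries, at 0.343, 0.291, 0.112 and 0.0383. The log2 fold change was 1.73 (SE 0.473, edgeR adjusted p = 0.0204), and the call was lost without ft/ft replicate 3 (log2 fold change 1.58, adjusted p = 0.0533). With both that loss and that of *Gsdmc*, 2 of the 7 gasdermin genes were called without ft/ft replicate 3. The *Gsdmc* cluster as a whole held 22.0 ± 11.3 CPM in ft/ft against 77.5 ± 29.5 in ft/ftMyD88-/- (SD, n = 4 each). This sum does not depend on how reads were split among these 3 copies, though any reads dropped as multiply placed, and those of *Gsdmc3*, are not in it.

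*Gsdmd*, the executor of inflammasome pyroptosis, was at 5.74, 6.29, 7.59 and 7.55 CPM in ft/ft and at 6.79, 11.6, 10.0 and 9.51 in ft/ftMyD88-/-. ft/ftMyD88-/- replicate 1 lay within the range of ft/ft, and the other 3 lay above it. The log2 fold change of 0.48 (SE 0.170) did not pass the threshold (edgeR adjusted p = 0.0592), and neither did the exact permutation test (p = 0.0857). Without ft/ftMyD88-/- replicate 1 it was 0.62 with an adjusted p of 0.0142, and DESeq2 put the adjusted p at 0.0294 with all libraries. *Dfna5*, the older symbol of *Gsdme*, stood at 3.91 ± 0.714 CPM in ft/ft against 4.58 ± 0.704 in ft/ftMyD88-/- (SD, n = 4 each), with overlapping groups and an edgeR adjusted p of 0.384. Pejvakin (*Pjvk*) was not analysed here.

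Markers of the cells that can hold these transcripts also moved. The counts of each marker list stand beside 10.9% of all genes called higher and 12.3% called lower. Of 7 basal keratinocyte markers 5 were lower in ft/ftMyD88-/- and none higher, and their summed level was 14020 to 17180 CPM in ft/ft against 9838 to 12060 in ft/ftMyD88-/-. Of 10 markers of differentiated keratinocytes 6 were lower and none higher, with sums of 19260 to 24710 and 13130 to 16220 CPM. The 7 markers of hyperproliferative keratinocytes had 2 higher (4 by DESeq2 and 4 by limma voom) and none lower, with overlapping sums of 2797 to 3653 and 3309 to 5704 CPM. The part of these cells in the levels of *Gsdma* and the *Gsdmc* genes was not tested. No marker of these or of the lists that follow was at 3 counts or fewer in every library.

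Sebaceous and hair lists stand beside *Gsdma3* and *Gsdma2*. Of 12 sebocyte markers 7 were lower and 1 higher (*Fabp5*), with sums of 20000 to 22780 CPM in ft/ft against 12900 to 17910 in ft/ftMyD88-/-. Of 6 markers of the hair follicle's infundibulum and isthmus 1 was lower, with overlapping sums of 5145 to 5801 and 4790 to 5255 CPM. None of 8 inner root sheath markers or of 7 hair shaft markers passed edgeR's test, although 7 and 6 of them were higher and 1 and 0 lower at an unadjusted p under 0.05. DESeq2 called 7 and 7 of them higher and limma voom 3 and 1. Their sums reached 16070 and 3191 CPM in single ft/ftMyD88-/- libraries against at most 2736 and 358 in ft/ft. Of 8 conjunctival markers 2 were lower (1501 to 2951 CPM in ft/ft, 1095 to 2092 in ft/ftMyD88-/-), and of 8 skeletal muscle markers 7 were lower, at 7856 to 10820 CPM in ft/ft against 3064 to 5880 in ft/ftMyD88-/-. The part of these in the gasdermin values was not tested.

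Markers of leukocytes, in which *Gsdmd* and the inflammasome genes are known to act, were higher as sums, which 1 or 2 members carried. The 8 macrophage and monocyte markers, of which 2 were called higher and none lower, held 462 to 593 CPM in ft/ft against 641 to 911 in ft/ftMyD88-/-. Most of that difference was *Lyz2*, which rose from 259.8 ± 13.5 to 514 ± 117 CPM (SD, n = 4 each), whereas *Cd68*, *Adgre1*, *Csf1r* and *Itgam* had log2 fold changes of -0.11, -0.03, -0.21 and -0.31 and were not called. *Fcgr1*, also called higher, had 0.88 (edgeR adjusted p = 0.0254). *Cd14* and *Mrc1* had 0.71 and 0.27 and were not called. The 6 neutrophil markers with a row, of 8 listed, had 1 higher (*Csf3r*, 3 by DESeq2 and 3 by limma voom) and 1 lower (*Mpo*), and held 33.3 to 268.6 CPM in ft/ft, where replicate 2 was the highest, and 402 to 960 in ft/ftMyD88-/-. Nearly all of that difference was *S100a8* and *S100a9*, which keratinocytes also make, with log2 fold changes of 3.22 and 3.22 (edgeR adjusted p = 0.126 and 0.123), whereas *Mpo* had -2.80 (0.0195). Their part in the values of *Gsdmd* and of the inflammasome genes was not tested. Where a direction of these keratinocyte, infundibulum, conjunctival, muscle and macrophage lists had 0 calls by edgeR, it also had 0 at an unadjusted p under 0.05, by DESeq2 and by limma voom.

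Transcripts of the proteases that cut gasdermins were higher in ft/ftMyD88-/- in 5 of the 8 described here and lower in none. Of all genes tested, 10.9% were higher and 12.3% lower. None of the 8 proteases was lower at an unadjusted p under 0.05 or in DESeq2 or limma voom. Their median log2 fold change was 0.66, beside 0.01 for all genes. The 2 inflammatory caspases that cut GSDMD were both higher, with no overlap between the groups. *Casp1* was at 24.7, 24.1, 20.3 and 20.6 CPM in ft/ft and at 33.6, 29.0, 33.5 and 36.5 in ft/ftMyD88-/- (log2 fold change 0.56, SE 0.106, edgeR adjusted p = 0.00303). *Casp4*, the sensor of cytosolic lipopolysaccharide, was at 11.1, 10.3, 8.09 and 8.67 CPM in ft/ft and at 12.4, 18.6, 17.6 and 16.3 in ft/ftMyD88-/- (log2 fold change 0.76, SE 0.150, edgeR adjusted p = 0.00374).

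*Casp8*, the initiator caspase reported to cut human GSDMC, had a log2 fold change of 0.08 (SE 0.119, edgeR adjusted p = 0.676), and *Casp6* 0.22 (SE 0.105, edgeR adjusted p = 0.152). Granule proteases had few counts. Granzyme A (*Gzma*) had 4 to 8 counts in the ft/ft libraries and 10 to 40 in the others, with overlapping CPM (log2 fold change 1.89, SE 0.417, edgeR adjusted p = 0.00706), and cathepsin G (*Ctsg*) had 0 to 5 and 8 to 13 (2.20, SE 0.582, 0.0174). Granzyme B (*Gzmb*) had 0 to 5 counts and 6 to 26 (2.09, SE 0.614, edgeR adjusted p = 0.0282), and its call was lost without ft/ft replicate 4 (0.0547), ft/ftMyD88-/- replicate 2 (0.0825) or ft/ftMyD88-/- replicate 4 (0.0749) and in limma voom with all libraries (0.0542). Neutrophil elastase (*Elane*) was not called, with an edgeR adjusted p of 0.741.

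Upstream of *Casp1*, inflammasome sensors and adaptors had calls in both directions. Of 13 tested of 14 listed, 4 were higher and 2 lower, beside 10.9% and 12.3% of all genes tested. Their median log2 fold change was 0.77. *Aim2*, a sensor of cytosolic DNA, was at 0.986, 1.27, 1.23 and 0.997 CPM in ft/ft and at 3.99, 3.71, 3.33 and 5.24 in ft/ftMyD88-/-. The groups lay far apart, with a log2 fold change of 1.85 (SE 0.208, edgeR adjusted p = 1.66e-04). *Nlrp3*, a sensor of potassium loss and membrane damage, was at 0.300, 1.38, 0.279 and 0.268 CPM in ft/ft and at 2.06, 3.45, 2.04 and 1.52 in ft/ftMyD88-/-. ft/ft replicate 2 again lay nearest to the other group (log2 fold change 1.97, SE 0.507, edgeR adjusted p = 0.0187, and 0.0513 without ft/ft replicate 1). *Mefv*, which encodes pyrin, rose from 1.12 ± 0.415 CPM to 2.71 ± 0.463 CPM (SD, n = 4 each, edgeR adjusted p = 0.00523).

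*Nlrp10*, an NLR protein of differentiated keratinocytes, went the other way, at 94.6, 66.6, 64.1 and 68.5 CPM in ft/ft against 27.0, 23.1, 32.97 and 29.1 in ft/ftMyD88-/-. It was 2.62-fold lower, a log2 fold change of -1.39 (SE 0.142, edgeR adjusted p = 9.80e-05), beside the lower sum of differentiated keratinocyte markers. Among the receptors of bacterial flagellin and secretion needles, *Naip5* was higher (1.04, SE 0.315, edgeR adjusted p = 0.0324) and *Naip1* lower (-0.88, SE 0.278, edgeR adjusted p = 0.0396). They belong to a family of close paralogs between which reads may be split. The call of *Naip5* was lost when ft/ft replicate 1, 2 or 4 or ft/ftMyD88-/- replicate 2, 3 or 4 was left out and with the replicate number as a block (0.0547). That of *Naip1* was lost without any single library other than ft/ftMyD88-/- replicate 1 and with scaling by library size alone (0.0748). The adaptor gene *Pycard* had a log2 fold change of 0.26 (SE 0.155, edgeR adjusted p = 0.254).

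Downstream of the pores, 1 of 6 genes for released proteins and membrane rupture was higher and none lower, beside 10.9% and 12.3% of all genes tested. None of the 6 was lower at an unadjusted p under 0.05 or in DESeq2 or limma voom. *Il1b*, the cytokine released through GSDMD pores, was at 3.64, 8.69, 1.95 and 0.920 CPM in ft/ft and at 24.0, 47.6, 19.1 and 33.4 in ft/ftMyD88-/-. Its log2 fold change of 3.00 (SE 0.696, edgeR adjusted p = 0.0250) lost the call without ft/ft replicate 1 (0.0663) or 3 (0.0663) or ft/ftMyD88-/- replicate 2 (0.0508) or 4 (0.0588). *Il18*, the other caspase-1 substrate, had -0.26 (SE 0.192, edgeR adjusted p = 0.366), and *Il1a* -0.25 (SE 0.161, edgeR adjusted p = 0.286). *Ninj1*, whose protein ruptures the membrane of dying cells, was at 43.9 ± 1.37 and 51.3 ± 3.72 CPM (SD, n = 4 each) without overlap, but did not pass the test (edgeR adjusted p = 0.0636). *Hmgb1* had 0.34 (SE 0.122, edgeR adjusted p = 0.0642) and *Il33* 0.65 (SE 0.386, edgeR adjusted p = 0.274). DESeq2 called *Ninj1* (adjusted p = 0.0251) and *Hmgb1* (0.0337) higher, and limma voom called neither.

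The genes whose pattern was most like that of *Gsdmc* included IL-36 genes. Over the 8 libraries, with each group's mean taken off and 13507 genes compared, the nearest to *Gsdmc* by Pearson correlation of log2 CPM were *Gtf2f1* (0.989), *Il1f9* (0.976), which encodes IL-36 gamma, and *Msto1* (0.972). With group means kept they were *Il1f6* (0.991), which encodes IL-36 alpha, *Krt16* (0.991), a keratin of stressed epidermis, and *Lce3b* (0.989), a cornified envelope gene. *Krt16* was at 67.2, 252.8, 46.9 and 49.9 CPM in ft/ft and at 357, 702, 370.3 and 1074 in ft/ftMyD88-/-. It was not called (edgeR adjusted p = 0.0530), though it was by DESeq2 (0.00125) and limma voom (0.00428). *Il1f6* was at 18.7, 41.1, 10.0 and 10.9 CPM in ft/ft and at 69.3, 63.3, 62.8 and 145.4 in ft/ftMyD88-/-. It was called (edgeR adjusted p = 0.0459), but under only 7 of the 15 alternatives. *Il1f9* overlapped between the groups and was not called (edgeR adjusted p = 0.1425), whereas *Lce3b* was (0.00970). In *Krt16* and *Il1f6*, as in *Gsdmc*, the highest ft/ft library was replicate 2 and the highest of all was ft/ftMyD88-/- replicate 4. These genes were picked for their correlation with *Gsdmc* over the same libraries, so this likeness is no separate observation. With group means kept, the correlation also takes in the difference between the groups. The values of a library share its depth and its piece of skin, and the correlations are given as a description.

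**Figure D4:**
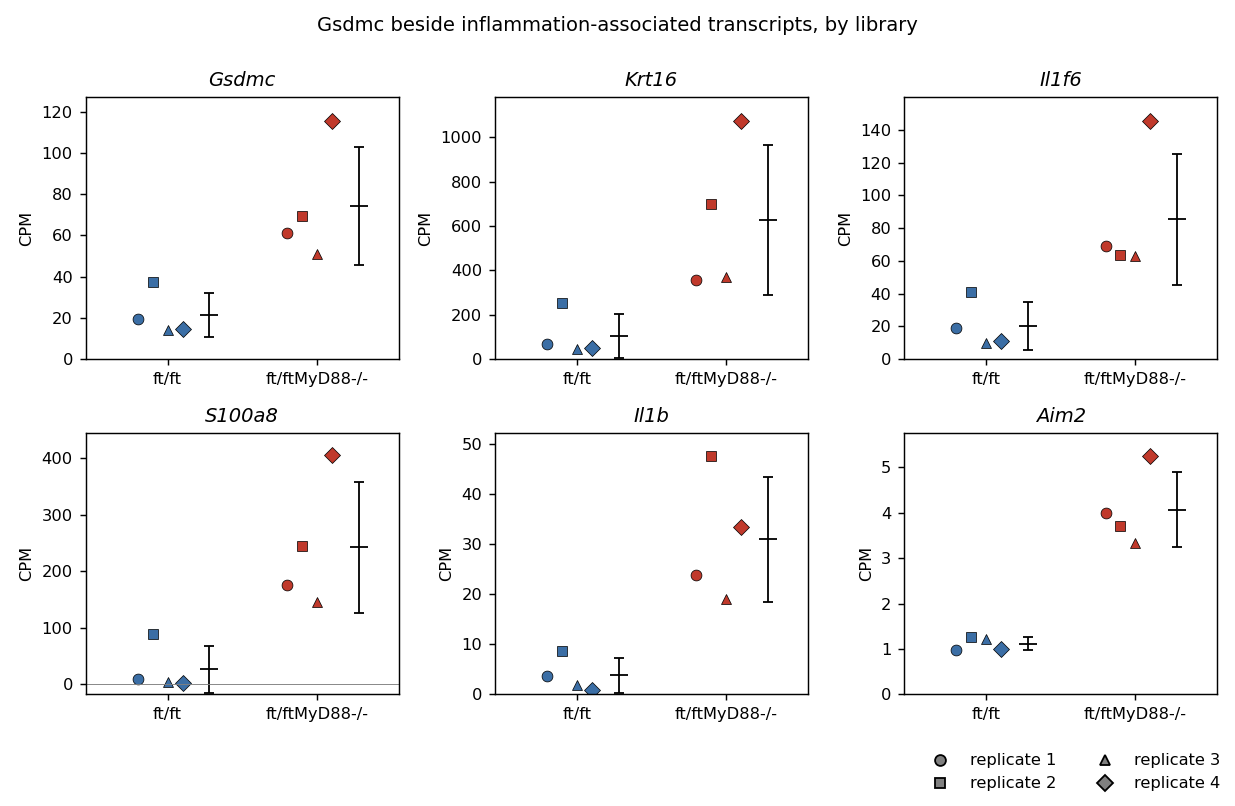
CPM (y axis, linear) of *Gsdmc*, *Krt16*, *Il1f6*, *S100a8*, *Il1b* and *Aim2* in the 4 ft/ft and 4 ft/ftMyD88-/- libraries (x axis), with shapes for replicates 1 to 4 and the mean with its SD beside each group. ft/ft replicate 2 is the highest ft/ft library in each panel, and ft/ftMyD88-/- replicate 4 is the highest of all except in *Il1b*. *Krt16* and *Il1f6* were picked for their correlation with *Gsdmc* over these libraries.

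The other gasdermin genes had different nearest genes. With group means taken off, those of *Gsdma* were *Zswim4* (0.983), *Pkp1* (0.981), a plakophilin of epidermal desmosomes, and *Ftsj3* (0.981), and with group means kept *Cast* (0.976) came first. For *Gsdma2* the nearest was *Fam222b* (0.961), for *Gsdma3* *Cyld* (0.943) and for *Gsdmd* *Iffo1* (0.992). With group means kept, *Runx1* (0.982) was among the nearest of *Gsdma2*, and *Zbp1* (0.983), a sensor of Z-form nucleic acid in lytic cell death, was the nearest of *Gsdmd*. Among the gasdermins themselves, *Gsdma* correlated with *Gsdma2* at 0.666, *Gsdmc* at 0.614, *Gsdma3* at 0.046 and *Gsdmd* at -0.525 once group means were taken off. In that order they ranked 1657, 2081, 6281 and 11074 among 13507 genes.

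The nearest tested genes outside the family did not pass the test. Beside the *Gsdma* cluster, *Ormdl3*, a regulator of sphingolipid synthesis, had a log2 fold change of -0.06 (SE 0.0848, edgeR adjusted p = 0.679), and *Psmd3*, a proteasome subunit, -0.04 (SE 0.0877, edgeR adjusted p = 0.786). Beside the *Gsdmc* cluster, *Asap1* had 0.27 (SE 0.122, edgeR adjusted p = 0.128), against 1.73 for *Gsdmc4*, the member nearest to it. *Asap1* was called without ft/ft replicate 2 (0.39, edgeR adjusted p = 0.0218) and with scaling by library size alone (0.45, edgeR adjusted p = 0.0212).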

How the data were processed

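RNA was measured in periocular skin of 8 mouse libraries, 4 per group, grouped by their labels. The authors aligned single-end reads of 50 bases to GRCm38.p6 with HISAT and tophat2, counted them per gene with HTSeq at default settings and deposited raw counts. The study describes polyA-selected libraries, whereas the labels name a fixed-tissue protocol and Cell Ranger. Aligner versions and strand setting are not given in the sources used here.

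Of 21247 genes, the 20454 whose counts over all libraries came to at least 10 entered edgeR 4.0.16 in R 4.3.3 (TMM, robust glmQLFit, two-sided quasi-likelihood test, Benjamini-Hochberg adjustment over all genes, threshold 0.05). CPM came from the same TMM factors, and lengths from GENCODE M21. The members and lists were chosen with earlier results of these data known. Genes named are the members, the genes of the pathway and marker lists, checks of the labels, the 3 genes most like each member with a mean of at least 50 counts, and the nearest tested gene on each side. Some genes of the protease list are not reported here and were left out of its counts. Alternatives were RLE scaling, library size only, DESeq2 1.42.0, limma 3.58.1 voom, filterByExpr, no filter, a replicate block and each library left out.

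On simulated data with 200 of 20454 genes changed by a log2 fold change of 2, 192 were called along with 20 unchanged genes. The changed genes were drawn only from genes above a minimum mean count, so genes with few counts and smaller changes were not covered. Replicates of a group differed by more than counting noise, so none was counted as a duplicate.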

Additional observations from a re-analysis of the deposited data

Results flagged for a closer look

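In each group of 4 libraries, the gap between the highest or lowest library and its nearest neighbour was compared with the group's range (Dixon's test at 95%). Of 94 groups looked at, which left out some of the marker genes, 7 were marked, and chance marks about 1 in 20. None was a group of a gasdermin gene. ft/ft replicate 2 stood out in 4 of them, with *Krt16* at 252.8 CPM (46.9 to 67.2 in the other 3), *S100a8* at 88.4 (1.53 to 8.96), *Nlrp3* at 1.38 (0.268 to 0.300) and *Psmd3* at 199.6 (173.7 to 176.5). Among marker genes outside these groups, it also lay far above the other 3 in *S100a9* (134.1 CPM against 2.91 to 13.5) and *Sprr2d* (47.8 against 2.61 to 4.07). The number marked thus does not tell how often this library stood apart. ft/ft replicate 1 stood out in *Nlrp10*, at 94.6 CPM against 64.1 to 68.5. ft/ftMyD88-/- replicate 4 stood out in *Il1f6*, at 145.4 CPM against 62.8 to 69.3, and ft/ftMyD88-/- replicate 1 in *Zdhhc9*, at 71.9 against 59.2 to 61.3.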

How the results depend on the processing

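*Gsdma2* and *Gsdmc2* kept their direction and call under all 15 alternatives. Library size alone moved the median log2 fold change of all genes from 0.01 to 0.19 and the calls from 2239 higher and 2525 lower to 4638 and 1326. It turned *Gsdma* to 0.14, *Ormdl3* to 0.12 and *Psmd3* to 0.14, and gave calls to *Gsdma3* (0.49) and *Gsdmd* (0.66), which DESeq2 also called (0.32 and 0.50). Library size alone called 8 sensors higher and 1 lower, 3 genes of the cytokine and rupture list higher, 2 membrane repair genes higher and 1 lower, and 3 of the palmitoylation and inhibitor list higher. DESeq2 called 3 cytokine and rupture genes and 2 palmitoylation and inhibitor genes higher, and filterByExpr 2 cytokine and rupture genes higher and 0 type 2 genes lower, since *Il25* was then not tested, and 3 proteases higher, since *Ctsg* and *Gzmb* were not tested.

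With each library left out, log2 fold changes ranged from -0.14 to 0.12 for *Gsdma*, 0.70 to 0.88 for *Gsdma2*, 0.23 to 0.37 for *Gsdma3*, 1.51 to 2.20 for *Gsdmc*, 2.16 to 3.28 for *Gsdmc2*, 1.37 to 2.11 for *Gsdmc4* and 0.37 to 0.62 for *Gsdmd*. *Gsdma* turned positive without ft/ft replicate 2 (0.12) or ft/ftMyD88-/- replicate 3 (0.06), and *Psmd3* ranged from -0.075 to 0.017, positive without the same libraries (0.011 and 0.017). Gasdermin genes called higher numbered 2 to 5, and all genes 1464 to 2260 higher and 1851 to 2408 lower. Calls numbered 2 to 6 higher and 1 to 2 lower for sensors, 0 to 3 and 0 to 1 for cytokines and rupture, 0 to 1 and 1 to 2 for membrane repair, 0 to 1 and 1 to 2 for type 2 genes, and 0 to 2 higher for palmitoylation and inhibitors. The causes were not tested, beyond fewer libraries in each fit.

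Same-numbered libraries of the groups did not deviate together (correlations -0.146, 0.0251, 0.0146 and -0.0169), and not every library correlated best with its own number, so the numbers were not taken as pairs. With the replicate block, the same 4 gasdermin genes were called, with log2 fold changes of 0.79 (*Gsdma2*), 1.83 (*Gsdmc*, edgeR adjusted p = 0.0498), 2.63 (*Gsdmc2*) and 1.80 (*Gsdmc4*), and 1895 genes were higher and 2144 lower. Depth limits *Gsdmc4*, with 1 to 8 counts per ft/ft library.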

Other observations

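Genes that act on gasdermin pores or on gasdermin proteins mostly did not pass the test. Of 16 genes of the ESCRT machinery, which removes pores from the membrane, 1 was higher in ft/ftMyD88-/- and 2 were lower. Beside these counts stand 10.9% and 12.3% of all genes tested, and the median log2 fold change of the 16 was -0.12. *Vps4b*, the ATPase that takes ESCRT filaments apart, was at 167 ± 11.9 CPM in ft/ft against 126 ± 2.50 in ft/ftMyD88-/- (SD, n = 4 each, log2 fold change -0.40, edgeR adjusted p = 0.00437). *Chmp4c*, a filament subunit, had -0.35 (0.0267) and *Pdcd6*, a calcium sensor that brings ESCRT to damaged membrane, 0.37 (0.0189). The call of *Chmp4c* was lost without ft/ft replicate 1 or 4 or ft/ftMyD88-/- replicate 2 or 4, and that of *Pdcd6* without replicate 4 of either group.

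Of 8 genes for palmitoylation of GSDMD and for inhibitors of its proteases, 1 was higher and 1 lower, beside 10.9% and 12.3% of all genes. Their median log2 fold change was 0.001. *Zdhhc9*, a palmitoyl transferase, was at 94.7 ± 13.4 CPM in ft/ft against 63.2 ± 5.91 in ft/ftMyD88-/- (SD, n = 4 each, log2 fold change -0.58, edgeR adjusted p = 0.00284). *Cflar*, the caspase-8 regulator, had 0.27 (edgeR adjusted p = 0.0389), which was lost with the replicate block (0.0828) and without any single library other than ft/ft replicate 2 or ft/ftMyD88-/- replicate 4.

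Of 7 genes of type 2 cytokines and their receptors, 1 was higher and 1 lower, beside 10.9% and 12.3% of all genes tested. *Il4ra*, the receptor subunit through which type 2 cytokines act on *Gsdmc* genes of the gut, was at 34.4 ± 3.47 CPM in ft/ft against 68.2 ± 30.3 in ft/ftMyD88-/- (SD, n = 4 each, log2 fold change 0.99, edgeR adjusted p = 0.0354), and the call was lost without any single library other than ft/ftMyD88-/- replicate 2 or 3. *Il25* was at 0.694 ± 0.347 CPM in ft/ft against 0.0488 ± 0.0397 in ft/ftMyD88-/- (SD, n = 4 each, log2 fold change -3.58, edgeR adjusted p = 0.00204). The rest of the list was not called. *Il4* had a log2 fold change of 0.05 (edgeR adjusted p = 0.916), *Il13* 0.25 (0.769) and *Il13ra1* 0.09 (0.620). *Stat6* had -0.17 (0.169) and *Tslp* -0.93 (0.0882).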
